A study of Mus musculus with 6 samples.

Results

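Transcript levels of 38 genes of tRNA charging were measured in bone marrow neutrophils of mice labelled WT and LRP5-null, out of 52636 genes in the deposited table. The genes were chosen by name and not by level: 20 encode cytosolic aminoacyl-tRNA synthetases or their subunits, 16 carry a symbol ending in 2 and encode mitochondrial synthetases, and 2, Aimp1 and Aimp2, encode proteins that hold synthetases together in a complex. The question put to them was whether the cytosolic and the mitochondrial enzymes differ in level, and whether either set differs between WT and LRP5-null cells. RNA came from 3 libraries of each label, all from C57BL/6N mice of 10 weeks. Lrp5 encodes a co-receptor for Wnt ligands. The study's methods describe floxed Lrp5 mice crossed to several Cre drivers, among them Lyz2, which is active in neutrophils and also in monocytes and macrophages, and name no driver for these libraries. The labels do not say whether WT animals carried a Cre.

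A synthetase joins one amino acid to the tRNAs that read its codons, so that the ribosome can place that amino acid in a growing protein. The cytosol and the mitochondrion each translate their own mRNAs, and all of the mitochondrial synthetases are encoded in the nucleus and imported. The genes Gars and Kars are exceptions to the pairing, since each gives rise to a cytosolic and a mitochondrial form. Several cytosolic synthetases are bound together with Aimp1, Aimp2 and Eef1e1 in the multisynthetase complex. When tRNAs stand uncharged, the kinase GCN2 phosphorylates eIF2 and the transcription factor ATF4 is made, which is known to switch on many cytosolic synthetase genes. Neutrophils in the bone marrow make much of their protein cargo before they leave it, and their transcription falls as they mature.

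The libraries held 249841492 to 340580330 reads. The neutrophil markers S100a8, S100a9 and Ly6g were abundant in every library, and the 13 genes of the neutrophil list summed to 409922 to 452020 TPM in WT and 438451 to 457603 TPM in LRP5-null. TPM is a transcript level corrected for length and scaled to 1 total per library. Lrp5 transcript stood at 1.12, 1.31 and 1.42 TPM in WT and at 1.68, 1.77 and 2.07 TPM in the LRP5-null libraries (limma, Benjamini-Hochberg adjusted p = 0.136). It was thus no lower under that label, and its level does not check the deletion. Lyz2, which encodes lysozyme, did separate the labels, at 26791, 26300.4 and 24797 TPM in WT and 14027, 13989 and 13359.7 TPM in LRP5-null (log2 fold change −0.91, limma adjusted p = 0.00351). Lyz2 is also the gene of one of the Cre drivers named, and its level does not check the deletion of Lrp5 either. The part of a Cre allele in this difference was not tested. Intronic reads were 7.78% to 9.0% in WT and 10.62% to 11.23% in LRP5-null, with WT replicate 3 among the WT libraries, and their part in the values given here was not tested. WT replicate 3 stood apart from the other WT libraries. Its ribosomal reads were 3.30% of the total, against 1.2% and 1.30% in WT replicates 1 and 2 and 2.69% to 2.98% in LRP5-null, and values without it and against it alone are given below where they differ.

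Cytosolic synthetases were present at much higher levels than mitochondrial ones in these cells. The median of the 20 cytosolic genes was 9.38 TPM over the 6 libraries, and that of the 16 mitochondrial genes was 0.782 TPM. A mean above 10 TPM was found for 10 of the 20 cytosolic genes, for Aimp1, and for 0 of the 16 mitochondrial genes.

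Dars, the cytosolic aspartyl-tRNA synthetase, had the highest level of the 38 genes, with a mean of 103 TPM. In WT it was at 118, 112 and 90.5 TPM, and in LRP5-null at 101, 99.2 and 97.2 TPM. The groups overlapped through WT replicate 3 alone. Its mean was above that of 90.3% of the genes tested and 3.20 times that of Nars, the asparaginyl enzyme and the next gene in the order. Dars thus gave 31.3% to 39.0% of the summed TPM of the cytosolic synthetases in each library. Dars (ENSMUSG00000026356.15) lies on the minus strand of chromosome 1 at 130260285 to 130313993 (NCBIM37, mm9).

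Nars was at 33.5, 31.9 and 33.7 TPM in WT and at 30.6, 30.7 and 32.9 TPM in LRP5-null. Gars, which charges tRNA for glycine in both compartments, followed with a mean of 21.3 TPM, close to Qars, the glutaminyl enzyme, with 21.1 TPM. The order of these neighbours does not hold beyond their spread, since Qars ranged from 14.5 to 25.3 TPM. Its coefficient of variation within groups, 22.6%, was the largest among the 28 genes of this set that were tested. At the low end of the cytosolic set were Tars, the threonyl enzyme, with 1.85 TPM, Farsb with 1.53 TPM and Iars, the isoleucyl enzyme, with 0.744 TPM.

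**Figure D1:**
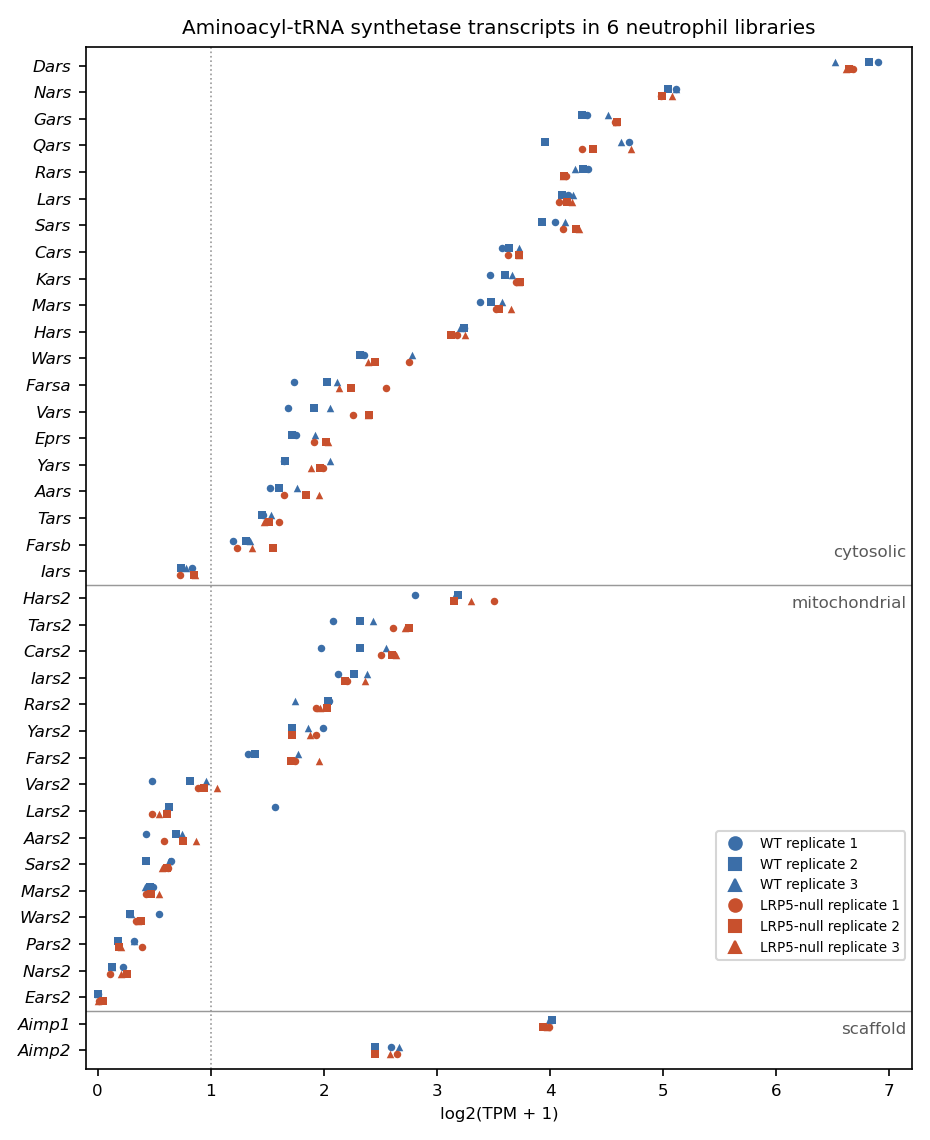
Level of each of the 38 genes on a log2(TPM + 1) axis, 1 point per library, with WT and LRP5-null in separate colours and replicates by shape; lines part the cytosolic, mitochondrial and scaffold genes and the dotted line marks 1 TPM. Dars stands above every other gene in all 6 libraries, and 9 of the 16 mitochondrial genes have means below 1 TPM.

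Of the mitochondrial synthetases Hars2, which charges tRNA for histidine, was the highest with a mean of 8.19 TPM, followed by Tars2 with 4.68 TPM and Cars2, the cysteinyl enzyme, with 4.47 TPM. The ranges of Tars2 and Cars2 overlapped, so their order is not resolved. Hars2 overlaps its cytosolic counterpart Hars on the opposite strand of chromosome 18, and although the study's methods name a stranded kit, where the labels name another, the sources used here do not state whether reads were counted by strand, so the levels of these neighbours cannot be told apart with certainty.

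A mean below 1 TPM was found for 10 of the 38 genes, Iars and 9 mitochondrial genes, and these did not enter the test. Vars2 at 0.827 TPM and Lars2 at 0.738 TPM were the highest of the 9 mitochondrial genes, and Nars2 at 0.131 TPM and Ears2 were the lowest. Ears2, which charges mitochondrial tRNAs for glutamate, was listed at 0 in all 3 WT libraries and in LRP5-null replicate 3, and at 0.00623 and 0.0322 TPM in the other two. Lars2 was at 1.96 TPM in WT replicate 1 and between 0.398 and 0.551 TPM in the other 5 libraries. In a fit without the minimum level, the log2 fold changes of these 10 genes ran from −0.39 for Lars2 to 0.21 for Vars2. The smallest unadjusted p among them was 0.177 (limma), and the groups overlapped for all 10.

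The remaining 28 genes, 19 cytosolic, 7 mitochondrial and both scaffold genes, had a mean of at least 1 TPM in each group. None passed the test between LRP5-null and WT: 0 of 28 had an adjusted p under 0.05 (limma, Benjamini-Hochberg over all genes tested), against 0.532% of the 9775 genes tested. The smallest adjusted p was 0.1001, that of Vars. At an unadjusted p under 0.05 there were 4 of 28 genes, Vars, Gars, Farsa and Tars2, all with higher values in LRP5-null. That is 14.3%, against 14.4% of all genes tested with a higher value, so the share of the synthetase genes was that of the background. In the other direction there were 0 genes, against 9.12% of all genes tested.

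The groups did not overlap for 5 genes with higher values in LRP5-null, those 4 and Kars, against 17.4% of all genes tested, and for 1 gene with lower values, Rars, against 12.3%. A fold change above 0 was found for 19 of the 28 genes, that is for the same direction as 58.8% of all genes tested. The median log2 fold change, LRP5-null against WT on the scale of log2(TPM + 1), was 0.09 for the cytosolic genes tested, 0.27 for the mitochondrial genes tested and −0.02 for the scaffold genes, beside 0.04 for all genes tested. Against WT replicate 3 alone these medians were 0.00022, 0.04 and −0.06, beside −0.01 for all genes tested. Without that library 7 of the 28 genes passed the test, Dars with a lower value and Vars, Gars, Yars, Tars2, Cars2 and Fars2 with higher values. In that fit 12.1% of all genes tested were called higher and 7.57% lower.

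**Figure D2:**
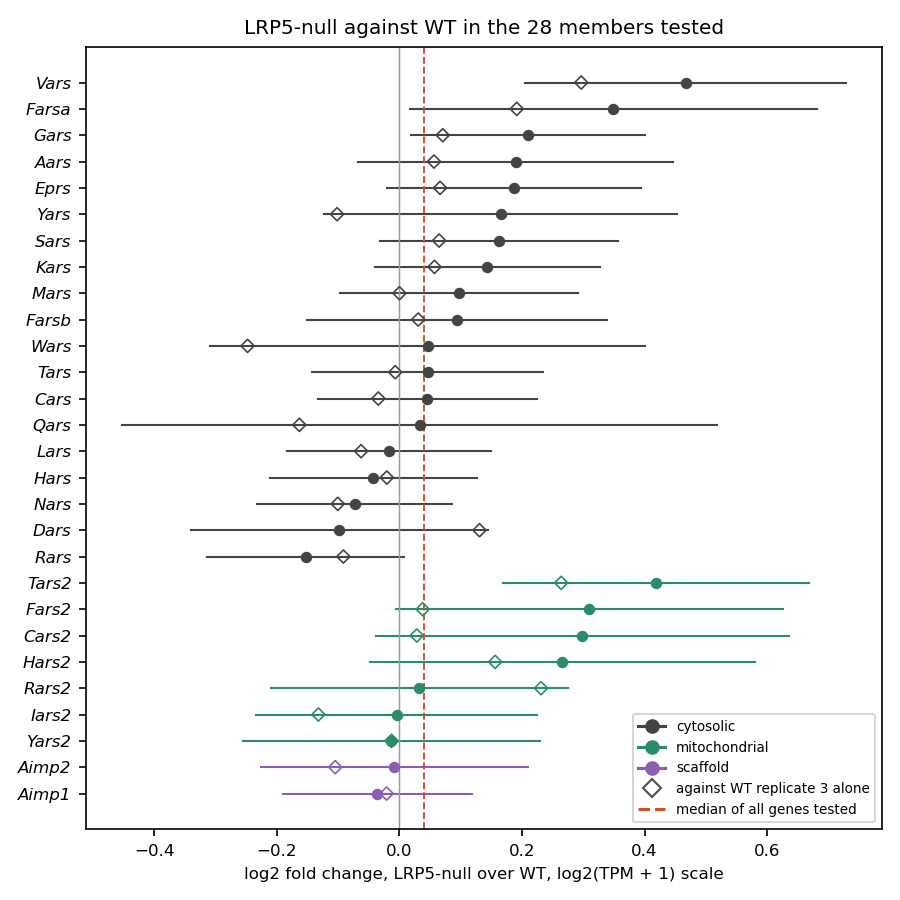
Log2 fold change of LRP5-null against WT on the log2(TPM + 1) scale for the 28 genes tested (filled points with 95% confidence intervals from limma), with the value against WT replicate 3 alone as open diamonds and the median of all genes tested as a dashed line. The intervals of Vars, Tars2, Gars and Farsa lie above 0 before adjustment over all genes, and the other 24 include 0.

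Vars, the cytosolic valyl-tRNA synthetase, had the largest fold change of the 28. It was at 2.21, 2.77 and 3.15 TPM in WT (2.71 ± 0.476, SD, n = 3) and at 3.77, 4.29 and 4.26 TPM in LRP5-null (4.11 ± 0.290, SD, n = 3). Every LRP5-null library was above every WT library. The log2 fold change was 0.47 (SE 0.112, 95% CI 0.21 to 0.73, limma adjusted p = 0.1001), and the exact permutation p was 0.1, the smallest that 3 libraries against 3 allow. Vars (ENSMUSG00000007029.16) lies on the plus strand of chromosome 17 at 35137932 to 35153267. Without WT replicate 3 its log2 fold change was 0.55 (limma adjusted p = 0.0209), and against that library alone it was 0.30. Over the alternatives run, the adjusted p of Vars ranged from 0.0209 to 0.308.

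Farsa and Farsb encode the catalytic and the other subunit of the cytosolic phenylalanyl enzyme, which works as a tetramer of both. Farsa was at 2.34, 3.07 and 3.35 TPM in WT and at 4.87, 3.73 and 3.40 TPM in LRP5-null, with a log2 fold change of 0.35 (SE 0.142, 95% CI 0.02 to 0.68, limma adjusted p = 0.197). Farsb was at 1.30, 1.48 and 1.55 TPM in WT and at 1.35, 1.93 and 1.57 TPM in LRP5-null, with a log2 fold change of 0.09 (95% CI −0.15 to 0.34, limma adjusted p = 0.608). The groups stood just apart for Farsa, with WT replicate 3 and LRP5-null replicate 3 almost level, and overlapped for Farsb. The ratio of Farsa to Farsb was 1.80, 2.08 and 2.16 in WT and 3.62, 1.93 and 2.17 in LRP5-null. One library, LRP5-null replicate 1, held the highest ratio, and the other 5 lay close together. Farsa (ENSMUSG00000003808.18) lies on the plus strand of chromosome 8 at 87380888 to 87393156.

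In Gars and Kars, the genes that serve both compartments, WT replicate 3 was the highest of the WT libraries. Gars was at 19.0, 18.4 and 21.8 TPM in WT (19.8 ± 1.80, SD, n = 3) and at 22.8, 23.1 and 23.0 TPM in LRP5-null (22.9 ± 0.146, SD, n = 3). Its log2 fold change was 0.21 (SE 0.082, 95% CI 0.02 to 0.40, limma adjusted p = 0.185). WT replicate 3 lay nearer to the LRP5-null libraries than to the other WT libraries, and the log2 fold change of Gars was 0.28 without it (limma adjusted p = 0.0291) and 0.07 against it alone. Gars (ENSMUSG00000029777.10) lies on the plus strand of chromosome 6 at 54987995 to 55029498.

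Kars, the lysyl enzyme, was at 10.1, 11.1 and 11.7 TPM in WT and at 12.0003, 12.3 and 12.2 TPM in LRP5-null. The groups did not overlap, and the log2 fold change was 0.14 (95% CI −0.04 to 0.33, limma adjusted p = 0.307). A processed copy, Kars-ps1, lies on chromosome X, and reads that match both could be counted at either gene.

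Rars, which charges tRNA for arginine, was the one gene of the 28 with every LRP5-null library below every WT library. It was at 19.2, 18.6 and 17.6 TPM in WT and at 16.7, 16.4 and 16.4 TPM in LRP5-null, with a log2 fold change of −0.15 (95% CI −0.31 to 0.01, limma adjusted p = 0.229).

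Dars and Nars had lower means in LRP5-null, within the spread. The log2 fold change of Dars was −0.10 (SE 0.104, 95% CI −0.34 to 0.14, limma adjusted p = 0.592). Leaving out WT replicate 3 gave −0.21 (limma adjusted p = 0.0488), and the comparison with that library alone gave 0.13. The value was below 0 whichever single library was left out (−0.21 to −0.02). For Nars the log2 fold change was −0.07 (95% CI −0.23 to 0.09, limma adjusted p = 0.544).

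The multisynthetase complex has 10 genes in the list used, of which 9 were tested (Iars was below 1 TPM). Their median log2 fold change was −0.01, 4 of the 9 were above 0, and 0 had an unadjusted p under 0.05. The 12 cytosolic synthetase genes outside the complex had a median of 0.13, with 10 of 12 above 0 and 3 at an unadjusted p under 0.05 (Vars, Gars and Farsa). Of all genes tested 58.8% were above 0 and 14.4% were at that level with a higher value. Against WT replicate 3 alone the median outside the complex was 0.01, with 6 of 12 above 0, and with the ribosomal share as a covariate it was 0.03. The difference between the sets inside and outside the complex was not tested.

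Aimp1, a scaffold of the complex that is also secreted as a cytokine, was the least variable gene of the 28, with a coefficient of variation within groups of 1.55%, against a median of 10.1%. It was at 15.1, 15.2 and 14.9 TPM in WT and at 14.9, 14.3 and 14.7 TPM in LRP5-null (log2 fold change −0.04, 95% CI −0.19 to 0.12). Aimp2, the other scaffold gene, was at 5.02, 4.47 and 5.35 TPM in WT and at 5.26, 4.47 and 5.01 TPM in LRP5-null (log2 fold change −0.01, 95% CI −0.23 to 0.21). Both genes overlapped between the groups. The interval of Aimp1 spans differences of up to 0.19 on the log2 scale. Aimp1 was 2.78 to 3.39 times as high as Aimp2 in WT and 2.83 to 3.21 times in LRP5-null.

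Synthetases fall into class I and class II, which differ in the fold of their catalytic site. The 13 class I genes tested had a median log2 fold change of 0.05, with 9 above 0 and 1 (Vars) at an unadjusted p under 0.05. The 13 class II genes tested had a median of 0.16, with 10 above 0 and 3 (Gars, Farsa and Tars2) at that level. Of all genes tested 58.8% were above 0 and 14.4% were at that level with a higher value. Against WT replicate 3 alone the medians were −0.03 for class I and 0.06 for class II, so the sign for class I turned, and the difference between the classes was not tested.

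Tars2, the mitochondrial threonyl-tRNA synthetase, had the largest fold change of the 7 mitochondrial genes tested. It was at 3.24, 3.98 and 4.40 TPM in WT (3.87 ± 0.588, SD, n = 3) and at 5.13, 5.74 and 5.58 TPM in LRP5-null (5.48 ± 0.317, SD, n = 3). Every LRP5-null library was above every WT library. The log2 fold change was 0.42 (SE 0.107, 95% CI 0.17 to 0.67, limma adjusted p = 0.106), and the exact permutation p was again 0.1, the smallest possible. It was 0.50 without WT replicate 3 (limma adjusted p = 0.0239) and 0.26 against that library alone. Tars2 (ENSMUSG00000028107.14) lies on the minus strand of chromosome 3 at 95543899 to 95558900.

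Hars2 was at 6.00, 8.12 and 7.96 TPM in WT and at 10.4, 7.91 and 8.83 TPM in LRP5-null, so that the groups overlapped (log2 fold change 0.27, 95% CI −0.05 to 0.58, limma adjusted p = 0.275). Cars2 was at 2.94, 3.998 and 4.87 TPM in WT and at 4.68, 5.07 and 5.24 TPM in LRP5-null (log2 fold change 0.30, 95% CI −0.04 to 0.63, limma adjusted p = 0.253). Its WT replicate 3 lay among the LRP5-null libraries, and against that library alone the log2 fold change was 0.03. Fars2, the mitochondrial phenylalanyl enzyme, had a log2 fold change of 0.31 over all libraries and 0.04 against WT replicate 3 alone. The other three mitochondrial genes tested, Iars2, Rars2 and Yars2, had log2 fold changes of −0.0040, 0.03 and −0.01.

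Summed over the 20 genes, the cytosolic synthetases reached 305, 287 and 289 TPM in WT and 290, 292 and 299 TPM in LRP5-null. The groups overlapped, with means of 294 ± 9.75 and 294 ± 4.76 TPM (SD, n = 3 each). Without Dars the cytosolic sum ran from 175 to 199 TPM in WT and from 189 to 202 TPM in LRP5-null. The 16 mitochondrial genes summed to 27.7, 30.01 and 32.4 TPM in WT and to 35.1, 33.7 and 36.2 TPM in LRP5-null. Here every LRP5-null library was above every WT library, with means of 30.1 ± 2.36 and 34.97 ± 1.24 TPM (SD, n = 3 each), 16.3% higher in LRP5-null. The intronic share of reads, given above, separated the groups in the same way. With libraries rescaled by median ratios over genes, the mitochondrial sum was 12.9% higher and the groups again did not overlap. Hars2, Tars2, Cars2 and Fars2 made up most of the difference in summed TPM, so it does not describe the whole set. Their means in WT and LRP5-null were 7.36 and 9.03, 3.87 and 5.48, 3.94 and 4.997, and 1.85 and 2.51 TPM. Iars2, Yars2, Lars2, Wars2 and Pars2 had lower means in LRP5-null. In bulk RNA, a difference in level per cell and a difference in the make-up of the cells cannot be told apart.

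The cytosolic sum was 11.001, 9.57 and 8.91 times the mitochondrial sum in WT and 8.28, 8.68 and 8.28 times in LRP5-null. All 3 LRP5-null ratios were below the WT ratios, and WT replicate 3 was the nearest to them. Among genes tested, the mean deviation of the mitochondrial genes from their mean over the 6 libraries was −0.21, −0.08 and 0.01 on the log2 scale in WT and 0.09, 0.05 and 0.14 in LRP5-null. For the cytosolic genes it was −0.09, −0.10 and 0.04 in WT and 0.03, 0.05 and 0.07 in LRP5-null. In both sets WT replicate 3 lay above the other WT libraries and close to LRP5-null.

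**Figure D3:**
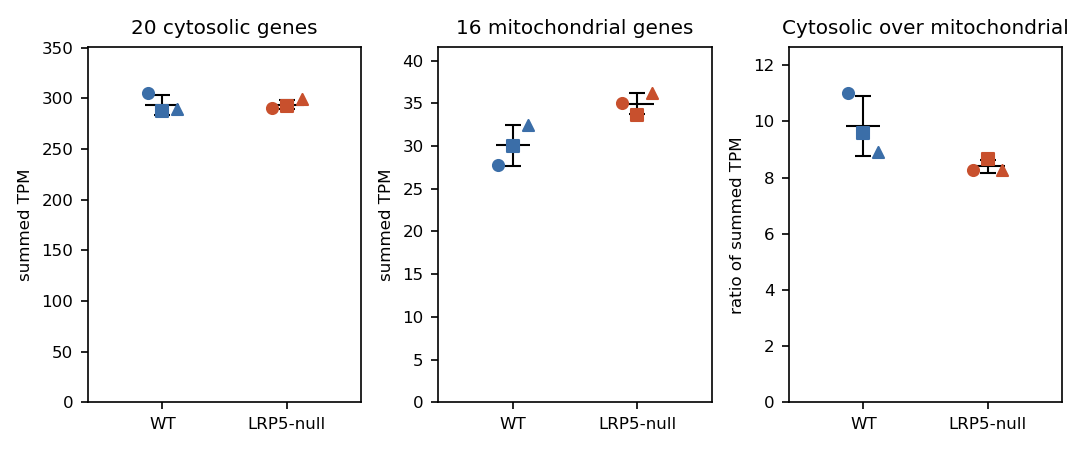
Summed TPM of the 20 cytosolic genes, summed TPM of the 16 mitochondrial genes, and the ratio of these sums, 1 point per library, with bars for the mean and SD of each group (n = 3). The cytosolic sums overlap between WT and LRP5-null, and the mitochondrial sums run from 27.7 to 32.4 TPM in WT and from 33.7 to 36.2 TPM in LRP5-null.

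**Figure D4:**
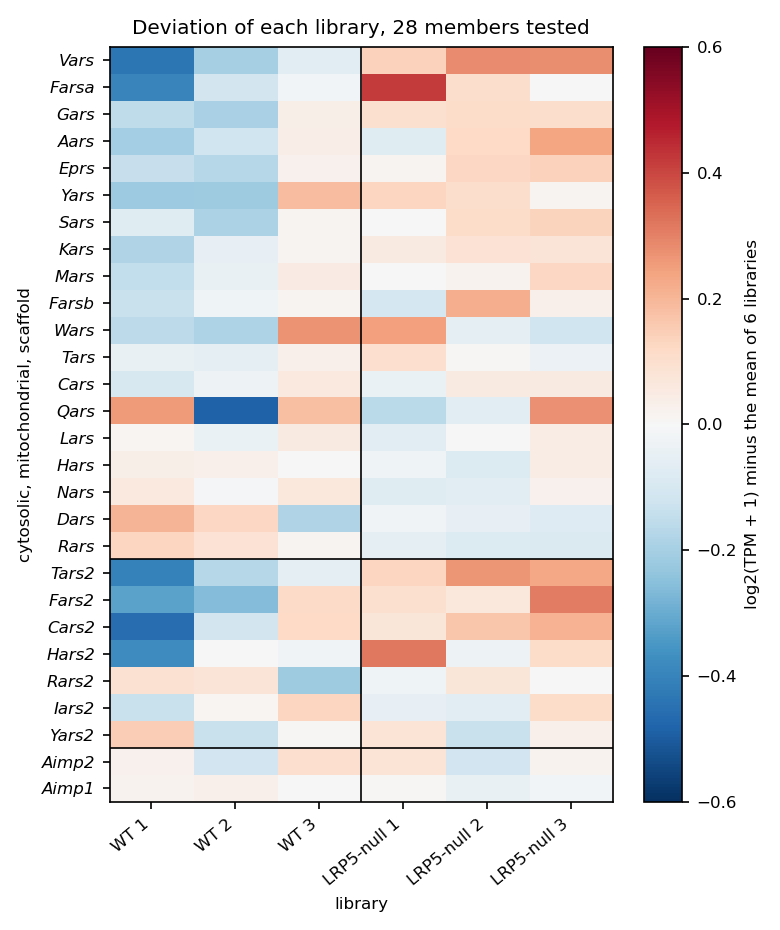
Heat map of each library’s deviation from the 6-library mean on the log2(TPM + 1) scale, for the 28 genes tested, with cytosolic genes above, then mitochondrial and scaffold genes, and the 3 WT libraries to the left. Red marks values above and blue below the gene’s mean; Vars and Tars2 are below it in all 3 WT libraries and above it in all 3 LRP5-null libraries.

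For 14 amino acids a cytosolic and a mitochondrial gene could be set side by side. Eprs, which would pair with both Ears2 and Pars2, was left out. The cytosolic gene was the higher in 12 of the 14, with a median ratio of 3.97. The widest gap was that of Nars to Nars2, a ratio of 247 in the means, followed by Sars to Sars2 with 32.6, Mars to Mars2 with 27.3 and Lars to Lars2 with 22.7. The mitochondrial gene was the higher for threonine, where the ratio of Tars to Tars2 was 0.395, and for isoleucine, where the ratio of Iars to Iars2 was 0.197. The levels were almost equal for histidine (1.004) and tyrosine (1.02).

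The ratio did not overlap between groups for 4 of the 14 pairs, and was lower in LRP5-null in each. Among single genes tested, 17.4% did not overlap with higher and 12.3% with lower values. Those are shares of single genes, and no share was computed for ratios of 2 genes, so the count has no like background. Tars to Tars2 was 0.543, 0.437 and 0.433 in WT and 0.399, 0.324 and 0.318 in LRP5-null. Cars to Cars2 was 3.72, 2.87 and 2.51 in WT and 2.44, 2.41 and 2.34 in LRP5-null. In both pairs WT replicate 3 was the WT library nearest to LRP5-null. Rars to Rars2 was 6.10, 5.99 and 7.49 in WT and 5.91, 5.31 and 5.65 in LRP5-null. Hars to Hars2, the pair that overlaps on the chromosome, was 1.41, 1.04 and 1.03 in WT and 0.780, 0.976 and 0.963 in LRP5-null. The ratios were not tested.

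**Figure D5:**
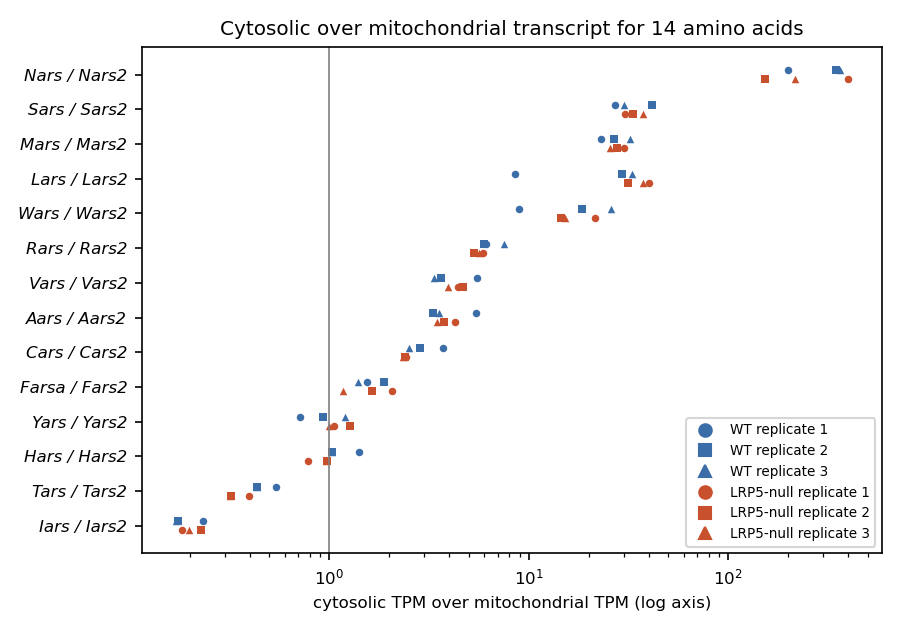
Ratio of the cytosolic to the mitochondrial gene for each of the 14 amino acids, on a log axis, 1 point per library, with groups by colour and replicates by shape. Asparagine (Nars over Nars2) stands at the top, and threonine and isoleucine lie below 1, the line at which both genes are equal.

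The fold changes of the synthetase genes moved with base composition, as did those of all genes. Across the 28 genes Spearman's rho between the GC content of the longest transcript and the log2 fold change was 0.53, and across the genes tested that had a GC value it was 0.49. These are correlations across genes, which share the same 6 libraries. Vars had a GC content of 60.9% and Dars one of 42.0%. In single libraries the deviation of all genes followed GC content with a rho of −0.61, −0.43 and 0.37 in WT and 0.33, 0.36 and 0.44 in LRP5-null, so that WT replicate 3 again sided with LRP5-null. With GC and length trends removed, the log2 fold change of Vars was 0.31 (limma adjusted p = 0.0455), that of Tars2 was 0.42 (limma adjusted p = 0.0512) and that of Dars was 0.05. In that fit Vars was the 1 synthetase gene past the threshold, where 1.79% of the genes tested were called higher and 3.11% lower.

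Whether the promoters of these genes carry the letters bound by ATF4 together with a C/EBP protein was read from RefSeq promoters (build GRCm38.p6). The letters searched were TGATGNAA on both strands, in the 250 bases before to 50 bases after each start site. Of the 38 genes 29 were matched, with 31 promoters. A match was found for 5 of the 13 cytosolic genes matched (Yars, Gars, Aars, Iars and Tars), for 0 of the 14 mitochondrial genes and for 0 of the 2 scaffold genes. Counted by promoter, 5 of the 31 held a match, against 3.97% of all 32851 promoters. A 30-base window is shown for each of the 5 genes with a match. At a share of 3.97% over all promoters, 0 of 14 does not set the mitochondrial genes apart from promoters at large. The capitals mark the match, which reads as TGATGNAA on the strand shown for Yars and on the opposite strand for the rest, and positions count from the start site.
Yars, bases 4 to 11, chr4:129189895-129189924, plus strand: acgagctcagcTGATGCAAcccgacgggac
Gars, bases −30 to −23, chr6:55037960-55037989, plus strand: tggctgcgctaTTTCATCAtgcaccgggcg
Aars, bases 10 to 17, chr8:111033840-111033869, plus strand: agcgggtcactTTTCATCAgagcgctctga
Iars, bases 8 to 15, chr13:49682126-49682155, plus strand: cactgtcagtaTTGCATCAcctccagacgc
Tars, bases −15 to −8, chr15:11399655-11399684, minus strand: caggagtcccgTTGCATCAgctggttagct

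A match of letters is a description of these windows and not a bound site. Among the genes with a match the log2 fold change was 0.21 for Gars, 0.19 for Aars (limma adjusted p = 0.331), 0.17 for Yars (limma adjusted p = 0.444) and 0.05 for Tars, and Iars was below 1 TPM. Vars had no promoter entry in the table used.

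The GCN2-ATF4 amino acid response list, which holds transporters, enzymes and factors of the response to uncharged tRNA, had 18 of 26 genes tested. Its median log2 fold change was 0.16, 15 of 18 were above 0, and 7 (38.9%) had an unadjusted p under 0.05, all higher in LRP5-null, against 14.4% of all genes tested. Set against WT replicate 3 alone the list had a median of 0.08, and 0 genes had an adjusted p under 0.05 over all libraries. Chac1, which degrades glutathione, was at 3.30, 3.14 and 3.61 TPM in WT and at 4.45, 5.34 and 5.05 TPM in LRP5-null (log2 fold change 0.45, limma adjusted p = 0.0765). The amino acid transporters Slc7a1 and Slc7a11 were among the 7. Slc7a1 reached the minimum of 1 TPM only through LRP5-null, with means of 0.754 TPM in WT and 1.31 TPM in LRP5-null, so its place among the 7 carries no weight. For Slc7a11 the log2 fold change was 0.25 (limma adjusted p = 0.120).

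The medians of the other lists of the pathway lay between 0.04 and 0.09. Of the charging cofactors, proteins that edit or assist charging, 11 of 14 genes were tested, with a median of 0.09 and 0 at an unadjusted p under 0.05. In tRNA maturation, which trims, splices and completes tRNA ends, 20 of 28 were tested, with a median of 0.04, and 2 were higher and 1 was lower at that level. In tRNA modification 23 of 42 were tested, with a median of 0.07, and 2 were higher, Elp3 (0.30, limma adjusted p = 0.135) and Ctu2 (0.33, limma adjusted p = 0.174), which act on the wobble base. In elongation, which delivers charged tRNA to the ribosome, 8 of 10 were tested, with a median of 0.04, and 1 was higher, Eef1d (0.37, limma adjusted p = 0.139). The shares higher at an unadjusted p under 0.05 were 0% for cofactors, 10.0% for maturation, 8.70% for modification and 12.5% for elongation. Over all genes tested they were 14.4% higher and 9.12% lower, so no list exceeded the background share of higher values. By limma 0 genes of these lists had an adjusted p under 0.05.

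Markers of maturation and of other cells moved beside these values. Of 16 immature neutrophil markers tested 15 had a fold change above 0 (median log2 0.24, 9 at an unadjusted p under 0.05), with sums of 63233 to 68202 TPM in WT and 65089 to 68005 TPM in LRP5-null. Of 14 mature markers 11 were below 0 (median −0.16, 6 at an unadjusted p under 0.05), with sums of 40685 to 44361 TPM in WT and 38957 to 40260 TPM in LRP5-null. Of all genes tested 58.8% were above 0, 14.4% had an unadjusted p under 0.05 with a higher and 9.12% with a lower value. T and NK cell markers summed to 11.6 to 13.7 TPM in WT and 16.04 to 17.7 TPM in LRP5-null, eosinophil and basophil markers to 10.7 to 13.1 TPM and 14.02 to 15.2 TPM, and monocyte markers to 55.2 to 66.7 TPM and 63.0 to 71.1 TPM. Cd3d made up most of the T and NK cell sum, with means of 10.1 TPM in WT and 13.9 TPM in LRP5-null, while Cd3e (0.133 and 0.0681 TPM) and Cd3g (0.667 and 0.576 TPM) had lower means in LRP5-null. Prg2, an eosinophil granule protein, was higher in LRP5-null, with means of 1.02 and 2.79 TPM (log2 fold change 0.91, limma adjusted p = 0.0341). It was the highest of the 3 eosinophil and basophil markers tested, whose median log2 fold change was 0.03 and whose lowest was −0.05. Of 7 monocyte markers tested 4 had a fold change below 0. B cell, erythroid and megakaryocyte markers summed to at most 13.7, 57.1 and 6.65 TPM in any library. No marker of these lists was at 0 in all 6 libraries. The labels give a density gradient and the study's methods a sort of cells positive for CD11b and Ly6G, a gate that would remove lymphocytes. The part of these cells and of maturation in the values of the synthetase genes was not tested.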

How the data were processed

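Neutrophil RNA was measured in 3 WT and 3 LRP5-null libraries. The authors aligned reads to mm9 and name DESeq2 for quantification, and deposited TPM per gene, each library scaled to 1 fixed total; the tool that gave TPM is not given in the sources used here. They also deposited read counts per library, shares of reads in percent and a ratio for coverage bias at transcript ends. TPM keeps no depth, so errors rest on the spread between libraries, and nothing in the labels says that the libraries came from separate animals. The labels name a density gradient for isolation and the methods text a sort on CD11b and Ly6G, and library kit and read type also differ between the labels, the files and the methods text.

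The 9775 genes whose mean over all libraries reached 1 TPM were tested on log2(TPM + 1), which understates changes of low genes, with limma 3.58.1 in R 4.3.3 (mean-variance trend, Benjamini-Hochberg over all genes). Single values were compared with exact two-sided permutation tests. The fit was tested on simulated data. Genes were placed on NCBIM37 with GENCODE M1, which also gave GC content and length for 89.7% of the genes tested; promoter sequences came from RefSeq, and 1 window with a match is not reported here. Alternatives were a pseudocount of 0.1, no filter or a mean of 5 TPM, other scalings, other limma settings, each library left out, WT replicate 3 as the one WT library, a replicate block, the ribosomal share as a covariate, and GC and length trends removed.

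The members and lists were chosen with earlier results of these data known. Values per library were given for genes with an unadjusted p under 0.05, the 3 highest of each compartment, Gars and Kars, Farsa and Farsb, Aimp1 and Aimp2, and, in the other lists, up to 3 genes with the smallest p were named. Rars, Qars, Lars2, Fars2, Ears2, Aars, Yars and Tars were named as ends of ranges or after their values were seen.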

Additional observations from a re-analysis of the deposited data

How the results depend on the processing

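The number of calls depended on the setting. The median log2 fold change of the mitochondrial genes tested (0.27) was 0.0312 with no filter, 0.0381 against WT replicate 3 alone and 0.12 with the ribosomal share as a covariate, and 0.14 to 0.32 with 1 library left out. That of the cytosolic genes (0.09) was 0.0329 with a mean of at least 5 TPM, 0.0116 after quantile normalization, 0.00022 against WT replicate 3 alone and 0.0253 with the ribosomal share, and 0.05 to 0.15 with 1 library left out. The number of genes called over the whole table (52) was 3 with no filter, 29 with a mean of at least 5 TPM, 96 after rescaling without mitochondrially encoded and top 20 genes, 6 against WT replicate 3 alone, 6 with the ribosomal share and 430 with GC and length trends removed, and 2 to 1920 with 1 library left out. The number of synthetase and scaffold genes called (0) was 1 with GC and length trends removed (Vars) and 0 to 7 with 1 library left out. The 7 were found without WT replicate 3 (Vars, Gars, Yars, Tars2, Cars2 and Fars2 higher, Dars lower), where 12.1% of all genes tested were called higher and 7.57% lower. The cause was not tested. The direction reversed for Farsb after quantile normalization (−0.0042), for Aimp2 after rescaling (0.0154), without WT replicate 1 (0.0024), without WT replicate 3 (0.04) and without LRP5-null replicate 2 (0.0474, with −0.0669 as the lowest value with 1 library left out), and for Dars against WT replicate 3 alone (0.13), with the ribosomal share (0.0594) and with GC and length trends removed (0.0490).

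With a replicate block, 4 genes were called over the whole table, with 0 of the 28 members among them, and the medians stayed at 0.09 and 0.27. Samples of the same number had deviations correlated at 0.23, −0.0075 and 0.13, and not every sample correlated best with its own number, so the labels share only a number. Depth of single genes cannot be read from TPM, and 15 of the 28 genes tested had means under 5 TPM.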
